A study of Mus musculus with 15 samples.

Results

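The genes described are the 4 adult haemoglobin genes of the mouse, Hba-a1, Hba-a2, Hbb-bs and Hbb-bt, together with Alas2, the first enzyme of haem synthesis in red cell precursors. They are 5 of the 30386 genes in the deposited count table, picked by symbol, and all 5 were among the 11718 that passed the filter on low counts. Gene expression was measured in mouse brain by QuantSeq, which reads the 3′ ends of polyadenylated RNA, in 15 libraries of 3 groups with 5 libraries each. Het_B12 mice were heterozygous for a mutation of Tbx1 (Tbx1+/-), which encodes a transcription factor of the T-box family, and received vitamin B12 in phosphate-buffered saline (PBS) at 20 mg/kg, injected intraperitoneally on 2 occasions per week over 4 weeks. Het_PBS mice were heterozygous in the same way and were injected with PBS. WT_PBS mice had 2 intact copies of Tbx1 and were injected with PBS, so that every mouse was injected. The labels give an age of 4 weeks, taken here as the age at the start of the injections. The sources used here do not give the strain, the part of Tbx1 that was lost or whether blood was flushed from the vessels, and the tissue is called a brain hemisphere in some labels and the whole brain in others. Vitamin-treated wild types were not analysed here.

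Haemoglobin, the oxygen carrier of red blood cells, is a tetramer of α- and β-globin chains that each hold a haem group. Haem is built in steps that begin in the mitochondrion with 5-aminolevulinate synthase, which exists as a ubiquitous form (Alas1) and an erythroid form (Alas2). Mature mammalian red cells have no nucleus but young ones, the reticulocytes, still hold globin mRNA, so that blood left in a tissue adds globin reads to its libraries. Globin mRNA has also been reported in some neurons of the rodent brain. Vitamin B12 is needed for normal DNA synthesis, and its lack impairs red cell formation. In libraries made from whole tissue, fewer cells of a type and less RNA per cell cannot be told apart.

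The α-globin genes lie in 1 cluster on chromosome 11 (GRCm38), Hba-a1 (ENSMUSG00000069919) at 32283511 to 32284465 and Hba-a2 (ENSMUSG00000069917) at 32296489 to 32297298, both on the plus strand. The β-globin genes lie on the minus strand of chromosome 7, Hbb-bs (ENSMUSG00000052305) at 103826534 to 103828096 and Hbb-bt (ENSMUSG00000073940) at 103812524 to 103813996. Alas2 (ENSMUSG00000025270) spans 150547375 to 150570638 on the plus strand of the X chromosome. Their promoters are shown because the genes moved together across libraries, as described further on. Each sequence is the 150 bases before the RefSeq start on GRCm38.p6, 5′ to 3′ on the strand of the gene, and capitals mark 4 motifs searched on both strands, namely TATAA of the TATA box, the letters CCAAT, the letters CACCC, and AGATAA or its variant TGATAA of the GATA motif.
Hba-a2 (chr11:32296342-32296491, plus strand): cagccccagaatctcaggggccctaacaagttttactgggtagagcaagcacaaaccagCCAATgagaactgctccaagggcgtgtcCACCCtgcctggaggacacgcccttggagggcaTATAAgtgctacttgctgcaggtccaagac
Hbb-bs (chr7:103827929-103828078, minus strand): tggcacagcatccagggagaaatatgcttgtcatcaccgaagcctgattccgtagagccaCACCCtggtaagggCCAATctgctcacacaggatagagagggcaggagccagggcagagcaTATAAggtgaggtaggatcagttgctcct
Hbb-bt (chr7:103813924-103814073, minus strand): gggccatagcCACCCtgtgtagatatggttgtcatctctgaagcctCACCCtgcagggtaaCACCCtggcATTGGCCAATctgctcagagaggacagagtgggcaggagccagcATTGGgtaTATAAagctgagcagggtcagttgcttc
Alas2 (chrX:150547267-150547416, plus strand): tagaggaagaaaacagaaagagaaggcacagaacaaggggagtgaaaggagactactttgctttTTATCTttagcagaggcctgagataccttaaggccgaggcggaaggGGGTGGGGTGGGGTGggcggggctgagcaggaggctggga
The Hba-a1 promoter matched that of Hba-a2 at 96.1% of aligned positions and held the same motifs, and those of Hbb-bs and Hbb-bt matched at 72.4%. All 4 globin promoters held TATAA, the letters of the TATA box, between 27 and 30 bases before the start, with CCAAT and CACCC further upstream. Hbb-bt held 3 matches each to CCAAT and CACCC, and ATTGG, which is CCAAT on the other strand, stood directly before CCAAT there. Alas2 had neither TATAA nor CCAAT in this window but had TTATCT, which is AGATAA on the other strand, and 3 matches to CACCC read on the other strand (GGGTG). Of 32851 mouse promoters of the same length, 14.2% held TATAA, 24.5% held CCAAT, 37.4% held CACCC and 9.65% held the GATA motif. Such matches are a description of letters and not evidence of a bound factor.

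Reads of each pair of globin genes can be hard to separate. The coding sequences of Hba-a1 and Hba-a2 were 99.8% identical, and so were those of Hbb-bs and Hbb-bt. The 3′ untranslated regions were 82.2% identical for the α pair (74 and 90 bases) and 69.4% for the β pair (131 and 132 bases). They are shorter than 300 bases, so reads near the 3′ end can also fall in the near-identical coding sequence. Of windows of 75 bases in the last 300 bases of the transcript, 66.8% in Hba-a1 and 59.7% in Hba-a2 were also found in the other copy, against 29.6% in Hbb-bs and 29.2% in Hbb-bt. The sources used here do not give the read length or how reads that fit both copies were handled, so single-gene levels within a pair are uncertain, and sums over a pair are given beside them. Alas2 is overlapped on the opposite strand by Apex2, a DNA repair endonuclease gene with 108 reads in all libraries against 214 for Alas2, and its count is uncertain without a stated strand setting.

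Total counts ran between 1683258 and 2746122 per library, so that 3 reads, used as the detection floor, were worth 1.02 to 1.79 CPM (counts scaled to the TMM-corrected library size). Tbx1 itself had 1 read in Het_B12, 3 in Het_PBS and 3 in WT_PBS libraries in all, too few to check the genotype labels. All 10 neuron and glia markers listed were present, summing to between 9172 and 14058 CPM. Gm42418, a gene that overlaps ribosomal RNA sequence, took 5.29 ± 1.25% of counts in Het_B12, 8.52 ± 1.73% in Het_PBS and 11.9 ± 1.78% in WT_PBS, and mitochondrially encoded genes took 8.47 ± 0.688% in Het_B12, 9.75 ± 1.33% in Het_PBS and 7.29 ± 1.32% in WT_PBS (SD over 5 libraries). The labels carry an animal number for each library, and 1 number stands on both Het_PBS 5 and Het_B12 1. Between these 2 libraries chi-square per degree of freedom was 10.3, and for the closest pair within a group it was 3.03. The 2 libraries are also of different groups, so these values cannot show whether both came from 1 mouse. No library was counted as a repeat of another. The labels do not say in so many words that every library had its own mouse, so the p-values take libraries, and not mice, as the units.

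Together the 4 globin genes took 0.0757 ± 0.0239% of counts in Het_B12, 0.216 ± 0.167% in Het_PBS and 0.0844 ± 0.0319% in WT_PBS (SD, n = 5). The lowest share was 0.0487% in WT_PBS 3 and the highest 0.484% in Het_PBS 3 (Wilson 95% interval 0.475% to 0.493%, counting error only). The groups overlapped, since Het_PBS 2, at 0.0735%, lay below 2 Het_B12 and 2 WT_PBS libraries. On the CPM scale 4 of 5 Het_PBS libraries stood above every Het_B12 library and 3 of 5 above every WT_PBS library. Hbb-bs had the most reads in 15 of 15 libraries, followed by Hba-a1, Hba-a2, Hbb-bt and Alas2. A QuantSeq count does not scale with transcript length in principle, but reads lost between near-identical copies would lower one pair more than another.

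**Figure D1:**
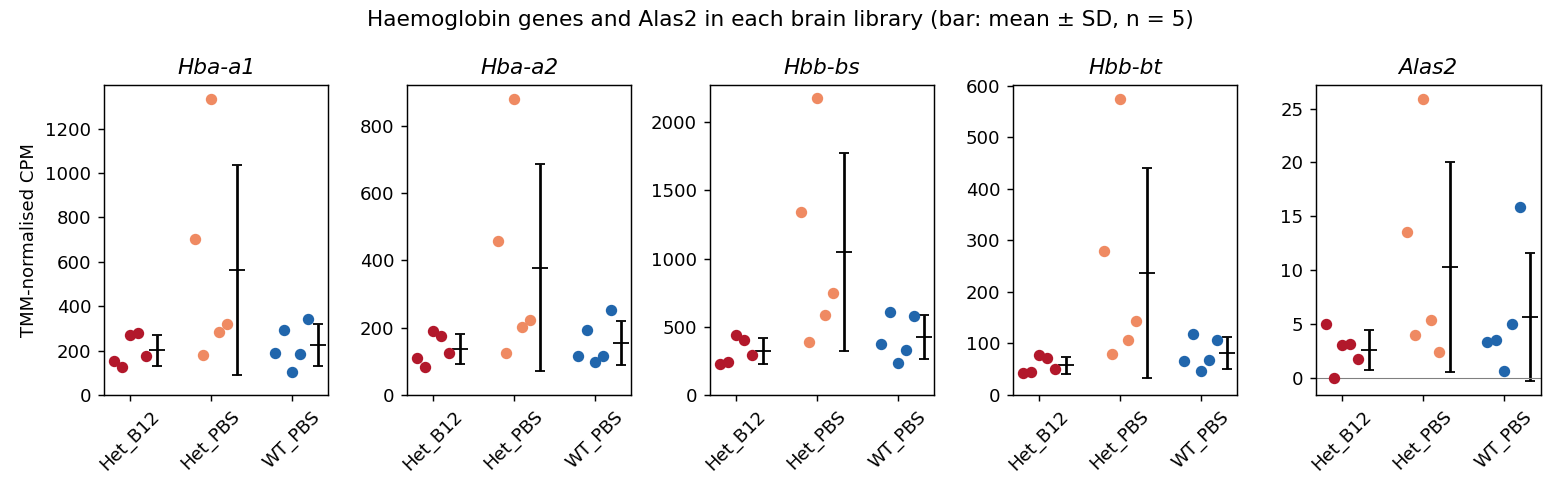
TMM-normalised CPM of the 4 haemoglobin genes and Alas2 (one panel each, each with its own axis) in Het_B12, Het_PBS and WT_PBS brain libraries; points are libraries in replicate order and bars the mean ± SD (n = 5). Het_PBS 3 and Het_PBS 1 are the highest points of every globin panel, and the other 3 Het_PBS libraries lie within or near the range of the other groups.

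Hba-a1 and Hba-a2 both encode the adult α-globin chain. Hba-a1 stood at 151, 126, 270.3, 278 and 176 CPM in Het_B12 libraries 1 to 5, at 703, 180.0, 1334, 282 and 319.9 CPM in Het_PBS, and at 191, 293, 106, 187 and 344 CPM in WT_PBS. Only Het_PBS 1 and Het_PBS 3 lay outside the range of the WT_PBS libraries on the high side. Hba-a2 stood at 110.5, 84.6, 192, 176 and 124 CPM in Het_B12, at 459, 125, 881, 202 and 222 CPM in Het_PBS, and at 115, 194, 97.0, 115 and 252 CPM in WT_PBS. The same 2 Het_PBS libraries were high, and the highest was 7.07 times the lowest in Het_PBS, against 2.26 times in Het_B12 and 2.60 times in WT_PBS.

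Hbb-bs and Hbb-bt encode adult β-globin chains. Hbb-bs stood at 224, 244, 437, 400.0 and 294 CPM in Het_B12, at 1341, 391, 2176, 586 and 745 CPM in Het_PBS, and at 371, 606, 237, 332 and 578 CPM in WT_PBS. Het_PBS 1, 3 and 5 were above every WT_PBS library, and Het_PBS 2 was within the Het_B12 range. Hbb-bt stood at 42.3, 43.7, 77.4, 72.3 and 50.6 CPM in Het_B12, at 279, 79.2, 574, 106 and 144 CPM in Het_PBS, and at 65.7, 119, 45.6, 67.1 and 107 CPM in WT_PBS. Hbb-bt was the only one of the 5 genes whose Het_B12 and Het_PBS values did not overlap, by the small margin between 77.4 CPM in Het_B12 3 and 79.2 CPM in Het_PBS 2. Such a separation, with Het_B12 lower, was found for 4.07% of the genes tested.

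Alas2, which makes 5-aminolevulinate in red cell precursors, was the least abundant of the 5 genes, with 214 reads in all libraries together. Alas2 stood at 5.00, 0, 3.06, 3.18 and 1.74 CPM in Het_B12, at 13.6, 3.98, 25.9, 5.37 and 2.39 CPM in Het_PBS, and at 3.28, 3.47, 0.584, 5.00 and 15.9 CPM in WT_PBS. Het_B12 2 had no Alas2 read, which allows up to 1.07 CPM for counting error, and WT_PBS 3 had 1 read. As with the globins, Het_PBS 3 and Het_PBS 1 were the highest Het_PBS libraries, but WT_PBS 5 lay above Het_PBS 1. The 3 groups overlapped.

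The first comparison was between Het_B12 and Het_PBS, which asks how vitamin B12 changed expression in heterozygous brains. All 5 genes were lower in Het_B12, with log2 fold changes between -2.04 and -1.46, and 5 of 5 passed the threshold (edgeR quasi-likelihood fit on all 15 libraries, Benjamini-Hochberg adjusted p under 0.05 over 11718 genes), where 3.79% of genes were called lower. The Het_PBS libraries were known to be high for these genes when the genes were chosen, so that these calls reuse that knowledge and are not independent support. Hbb-bt fell by 2.04 ± 0.31 on the log2 scale (SE; 95% interval -2.68 to -1.41; edgeR adjusted p = 5.28e-05), with means of 57.3 ± 16.5 CPM in Het_B12 and 237 ± 204 CPM in Het_PBS (SD, n = 5). Hbb-bs fell by 1.71 ± 0.27 (adjusted p = 7.87e-05), at 319.9 ± 94.6 CPM in Het_B12 and 1048 ± 724 CPM in Het_PBS. Hba-a1 fell by 1.49 ± 0.31 (adjusted p = 0.00206) and Hba-a2 by 1.46 ± 0.30 (adjusted p = 0.00181). Their intervals overlapped widely with those of the β-globins, and whether α and β chains differed in their fall was not tested. Alas2 fell by 2.01 ± 0.61 (95% interval -3.24 to -0.776; adjusted p = 0.0358), at 2.60 ± 1.86 CPM in Het_B12 and 10.2 ± 9.75 CPM in Het_PBS. With the DESeq2 Wald test the SE of the globins were larger, at 0.506 for Hba-a1, 0.486 for Hba-a2, 0.443 for Hbb-bs and 0.489 for Hbb-bt. The DESeq2 adjusted p was 0.0381, 0.0337, 0.00338 and 0.0012 in that order.

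The size of these falls rested on Het_PBS 3 and Het_PBS 1. Without Het_PBS 3 the log2 fold changes were -0.89 for Hba-a1, -0.87 for Hba-a2, -1.26 for Hbb-bs, -1.40 for Hbb-bt and -1.31 for Alas2, and Alas2 was no longer called. Without both libraries, Hba-a1 was at -0.38 (adjusted p = 0.422) and Hba-a2 at -0.41 (adjusted p = 0.361), neither called. Hbb-bs at -0.85 (adjusted p = 0.02) and Hbb-bt at -0.93 (adjusted p = 0.0133) were still called, each p being the highest over all 25 alternative fits of that gene. Summed over each pair, a setting added after the data were seen, α-globin was at -1.49 ± 0.305 and β-globin at -1.78 ± 0.275 with all libraries, and at -0.39 ± 0.232 and -0.855 ± 0.214 without the pair of high libraries (log2 fold change, SE). The call for Alas2 was also lost without Het_PBS 1, without any one of Het_B12 2, 3, 4 and 5, and with DESeq2 or limma-voom (adjusted p = 0.141 and 0.0705; 0.000438 to 0.695 over 23 alternatives).

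The second comparison set Het_B12 against WT_PBS, that is, vitamin-treated heterozygotes against wild types injected with PBS. Genotype and vitamin both differ here and cannot be told apart. None of the 5 genes passed the threshold, where 7.33% of genes were called in either direction. The WT_PBS libraries, too, were known when the genes were chosen. The log2 fold changes were -0.16 ± 0.31 for Hba-a1 (95% interval -0.797 to 0.472; edgeR adjusted p = 0.81) and -0.17 ± 0.31 for Hba-a2 (adjusted p = 0.793). Mean Hba-a1 levels were 200.4 ± 69.6 CPM in Het_B12 and 224 ± 94.4 CPM in WT_PBS, so that the difference was smaller than either SD. Hbb-bs was at -0.41 ± 0.27 (95% interval -0.95 to 0.134; adjusted p = 0.397) and Hbb-bt at -0.49 ± 0.32 (95% interval -1.14 to 0.156; adjusted p = 0.391). These intervals admit falls of the β-globins of about the size seen against Het_PBS without its 2 high libraries, so no statement of equal levels can be made. Without any filter on low counts both β-globin genes were called lower, among 1004 genes called in all. Their edgeR adjusted p was 0.0159 for Hbb-bs and 0.0136 for Hbb-bt, against at most 0.672 and 0.629 over 25 alternatives. Their log2 fold changes hardly moved, at -0.40 and -0.48, but the SE were smaller, at 0.114 and 0.136. Alas2 was at -1.19 ± 0.63 (adjusted p = 0.275), with means of 2.60 ± 1.86 CPM in Het_B12 and 5.64 ± 5.94 CPM in WT_PBS.

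The third comparison was between the genotypes, Het_PBS against WT_PBS. These values led to the choice of the genes, so they are given as a description and no p-value of the 5 genes is used. All 5 genes were higher on average in Het_PBS, with log2 fold changes of 1.33 ± 0.31 for Hba-a1, 1.29 ± 0.30 for Hba-a2, 1.30 ± 0.27 for Hbb-bs, 1.55 ± 0.31 for Hbb-bt and 0.82 ± 0.56 for Alas2 (SE). None of the 5 and 0% of all genes were called there at an adjusted p under 0.05, and 7.5% of genes had an unadjusted p under 0.05; nothing about the 5 genes is read from these counts. Hbb-bs averaged 1048 CPM (SD 724) in Het_PBS and 425 CPM (SD 160) in WT_PBS, a difference smaller than the SD of Het_PBS. Leaving out Het_PBS 3 and Het_PBS 1 gave 0.22 for Hba-a1, 0.24 for Hba-a2, 0.44 for both β-globin genes and -0.52 for Alas2. The order of the groups for each globin gene was therefore Het_PBS, WT_PBS and Het_B12 by mean, with neighbours in that order overlapping in range.

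**Figure D2:**
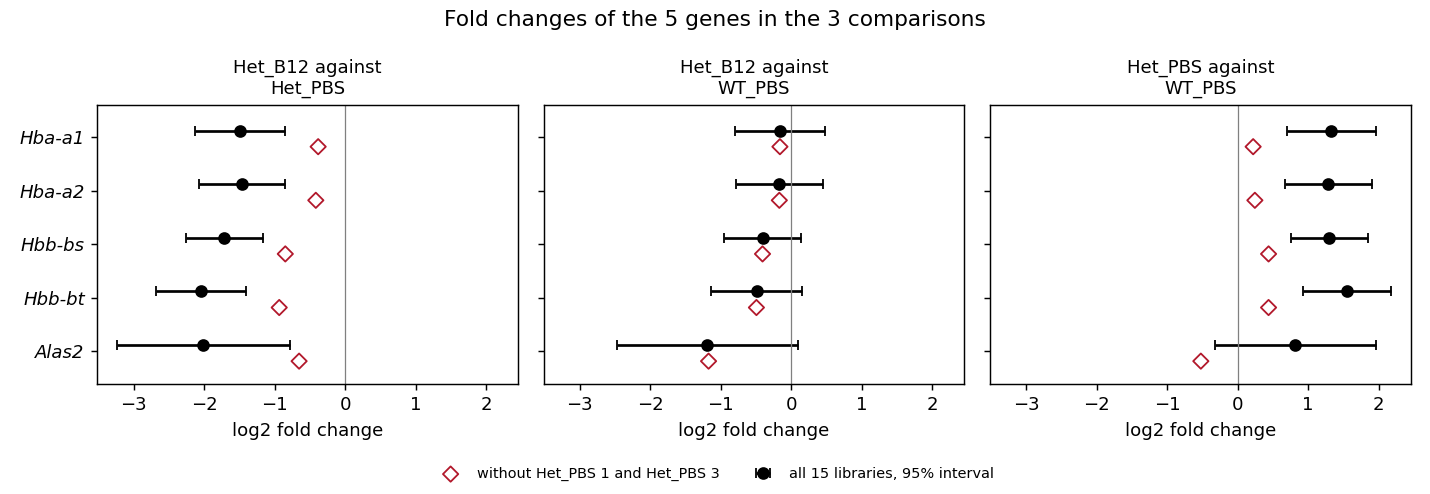
Log2 fold changes of the 5 genes in the 3 comparisons, from the edgeR fit of all 15 libraries (filled circles, bars for the 95% interval) and from the fit without Het_PBS 1 and Het_PBS 3 (open diamonds). In Het_B12 against Het_PBS the circles lie between -2.04 and -1.46 and the diamonds between -0.93 and -0.38, while in Het_B12 against WT_PBS, which does not use the libraries left out, circles and diamonds nearly coincide.

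The make-up of the haemoglobin reads varied much less than their amount. Reads of the 2 α-globin genes made up 46.9 ± 2.87% of haemoglobin reads in Het_B12, 40.9 ± 2.56% in Het_PBS and 42.5 ± 2.45% in WT_PBS (SD, n = 5). The α share was above 46% in 4 of 5 Het_B12 libraries, but Het_B12 2 at 42.3% lay within the Het_PBS range of 37.9% to 44.6%, and WT_PBS 5 reached 46.5%. Hbb-bt supplied 15.2 ± 0.436% of β-globin reads in Het_B12, 17.3 ± 2.13% in Het_PBS and 16.0 ± 0.691% in WT_PBS. Het_PBS 3, the library with the most haemoglobin reads, stood apart at 20.9% (Wilson 95% interval 19.9% to 21.9%), and the next highest was Het_PBS 1 at 17.2%. Hba-a2 supplied 40.8 ± 1.36% of α-globin reads in Het_B12, 40.6 ± 0.941% in Het_PBS and 41.1 ± 4.20% in WT_PBS, of which WT_PBS 3 was highest at 47.8% (42.6% to 53.1%). Because copies share sequence, shares within a pair also carry any error in assigning reads. Alas2 had 3.75 ± 3.48 reads per 1000 haemoglobin reads in Het_B12, 4.29 ± 1.49 in Het_PBS and 5.60 ± 4.38 in WT_PBS, with ranges that overlapped. Het_PBS 3, with 60 Alas2 reads, and Het_PBS 2, with 10, had similar values of 5.21 and 5.14 per 1000. The ratio was not constant, however, at 1.67 in Het_PBS 5, 0 in Het_B12 2 and 12.4 in WT_PBS 5.

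**Figure D3:**
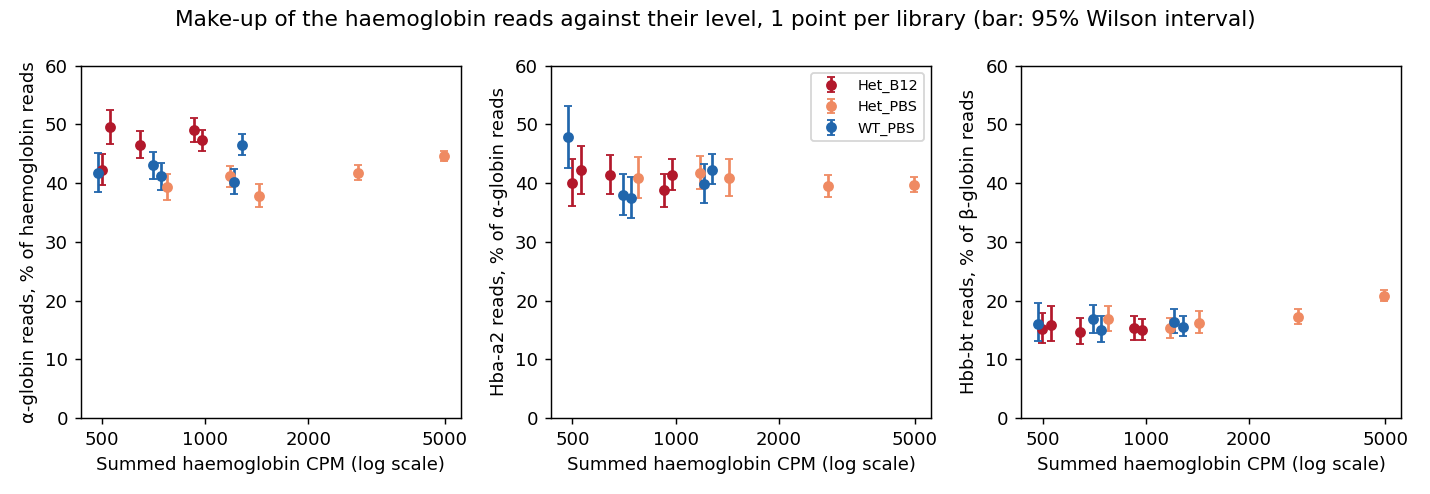
Share of α-globin among haemoglobin reads, of Hba-a2 among α-globin reads and of Hbb-bt among β-globin reads (percent, 95% Wilson intervals) against the summed haemoglobin CPM of each library (log scale). While the level ran between 486 and 4965 CPM, the α share stayed between 37.9% and 49.6%, and the highest Hbb-bt share, 20.9%, belongs to the library with the highest level.

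Across the 15 libraries the globin genes followed each other closely. On the log2 CPM scale Pearson's r was 0.995 between Hbb-bs and Hbb-bt and 0.989 between Hba-a1 and Hba-a2, and the lowest r between an α- and a β-globin gene was 0.967. Without Het_PBS 3 and Het_PBS 1 these were 0.991, 0.96 and 0.878. Alas2 had an r of 0.79 with the summed haemoglobin level (Spearman's rho 0.621), which was 0.585 without the 2 high libraries. The points share library depth and, within a pair, near-identical sequence, and the values are descriptive.

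Most other globin genes were rare, and none was called. The embryonic genes Hba-x and Hbb-bh1 had no read and Hbb-y had 1, in Het_PBS 1. Hbb-bh2, also listed, had no read. Hbq1a and Hbq1b, θ-globin genes, had 7 and 2 reads in all, and Mb, which encodes the myoglobin of muscle, had 13. Cytoglobin (Cygb), found in fibroblast-like cells, averaged 195 ± 28.6 CPM in Het_B12, 216 ± 37.1 CPM in Het_PBS and 201 ± 41.7 CPM in WT_PBS, and neuroglobin (Ngb), a neuronal globin, 7.88 ± 1.78, 7.45 ± 0.523 and 11.9 ± 2.26 CPM. In Het_PBS against WT_PBS, where 0 of all genes were called, Ngb was at -0.69 ± 0.30 (log2 fold change, SE; edgeR adjusted p = 0.608). Of these 9 genes only Cygb and Ngb passed the filter, and neither was called in any comparison.

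Among the remaining genes of haem synthesis few were called. Of 18 listed genes, from Alas1 to ferrochelatase and the mitochondrial carriers of glycine and iron, all 18 were tested and 1 was called in Het_B12 against Het_PBS, where 3.47% of all genes were called higher and 3.79% lower, with a list median of 0.0631 on the log2 scale against 0.0119 over all genes. At these shares a count of 1 in 18 does not set the list apart. That gene, Urod, encodes uroporphyrinogen decarboxylase, an enzyme of the cytosolic steps, and rose by 0.60 ± 0.16 (SE; edgeR adjusted p = 0.0138), opposite in direction to Alas2. Urod averaged 62.5 ± 11.4 CPM in Het_B12, 41.3 ± 5.32 CPM in Het_PBS and 38.8 ± 7.17 CPM in WT_PBS, and was also called higher against WT_PBS (0.69 ± 0.16, adjusted p = 0.00511). Glrx5, an iron-sulphur cluster protein, at -0.35 ± 0.13 (adjusted p = 0.0833), Ppox, which oxidises protoporphyrinogen, at 1.13 ± 0.47 (adjusted p = 0.141), and ferrochelatase (Fech), which inserts iron, at -0.32 ± 0.18 (adjusted p = 0.309) did not pass. In Het_PBS against WT_PBS 0 of the 18 were called, as were 0 of all genes.

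Many genes of the red cell membrane and of red cell enzymes were rare. Of 30 listed genes 29 were in the table and 13 passed the filter, of which 2 rose and 0 fell in Het_B12 against Het_PBS (3.47% and 3.79% over all genes), with a median of -0.0448 against 0.0119 over all genes. Ankyrin 1 (Ank1), a membrane skeleton protein that neurons also make, rose by 0.57 ± 0.15 (edgeR adjusted p = 0.0109; up to 0.111 over 25 alternatives), at 62.5 ± 8.81 CPM in Het_B12 and 42.1 ± 4.96 CPM in Het_PBS. Protein 4.1 (Epb41) rose by 0.46 ± 0.15 (adjusted p = 0.0466), a call lost in 7 of 15 fits without 1 library. Both calls were lost without Het_PBS 1 and 3. Ank1 was also higher than in WT_PBS (0.68 ± 0.15, adjusted p = 0.0027). Several genes largely restricted to red cells were near 0. Slc4a1, the band 3 anion exchanger, had 3 reads in Het_B12, 20 in Het_PBS, 15 of them in Het_PBS 3, and 13 in WT_PBS. Protein 4.2 (Epb42), a membrane skeleton protein, had 0 reads in Het_B12, 5 in Het_PBS, 4 of them in Het_PBS 3, and 0 in WT_PBS. Tspo2, a translocator protein of erythroid cells, had 1 read in Het_B12, 19 in Het_PBS and 19 in WT_PBS. Rhag, Kel and Cldn13 had no read in any library, and none of these 6 genes passed the filter.

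Regulators of the red cell lineage, a list of transcription factors, receptors and iron regulators, gave no called gene. Of 19 listed regulators 18 were in the table and 13 were tested, with 0 called in each of the 3 comparisons, a count that does not set so short a list apart where 7.33% of genes or fewer were called. Gata1 had no read, and Klf1, an activator of the adult β-globin gene, had 4, all in Het_PBS 4, so that neither was tested. Bcl11a, a repressor of embryonic and fetal globin genes that cortical neurons also express, was at 0.38 ± 0.12 in Het_B12 against Het_PBS (edgeR adjusted p = 0.0508). Among 18 genes of haem breakdown and iron handling, 16 were in the table, 12 were tested and 0 were called, to be read against the same shares. The haem transporter Slc48a1 was at -0.27 ± 0.10 (adjusted p = 0.106), haem oxygenase 2 (Hmox2) at -0.29 ± 0.14 (adjusted p = 0.241) and haptoglobin (Hp), which binds free haemoglobin, at -1.16 ± 0.60 (adjusted p = 0.253).

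Markers of other blood cells moved with the haemoglobin genes in part. Of 16 leukocyte genes, 5 were tested and 3 fell in Het_B12 against Het_PBS, and their summed level over all 16 ran between 40.1 and 63.6 CPM in Het_B12, 63.6 and 151 CPM in Het_PBS, and 50.8 and 76.0 CPM in WT_PBS. S100a8, a calprotectin subunit made by neutrophils, fell by 3.63 ± 0.58 (edgeR adjusted p = 7.89e-05), and its partner S100a9 fell by 2.75 ± 0.54 (adjusted p = 0.00102). In Het_B12 both were at or near the detection floor, with means of 1.26 ± 0.653 CPM for S100a8 and 1.5 ± 1.53 CPM for S100a9, against 16.8 ± 15.4 and 10.9 ± 7.58 CPM in Het_PBS. Lysozyme 2 (Lyz2), which macrophages and microglia also make, fell by 1.18 ± 0.30 (adjusted p = 0.0121, lost without Het_PBS 5). The other tested leukocyte genes, Coro1a and Ptprc, were not called in Het_B12 against Het_PBS. Coro1a was at 0.20 ± 0.19 (edgeR adjusted p = 0.586), and Ptprc had 41 reads in Het_B12 and 39 in Het_PBS. In that comparison 3.79% of all genes were called lower, and 4.11% in Het_B12 against WT_PBS. Against WT_PBS, S100a8 fell by 2.49 ± 0.61 (adjusted p = 0.00857) and S100a9 by 2.06 ± 0.55 (adjusted p = 0.0177), calls lost without WT_PBS 1 for S100a8 and without WT_PBS 5 or Het_B12 1 for S100a9. S100a8 was highest in Het_PBS 5, at 44.2 CPM, against 12.1 CPM in Het_PBS 3 and 7.02 CPM in Het_PBS 1, the 2 libraries with the most haemoglobin reads. S100a9 stood at 20.9 CPM in Het_PBS 5, 16.8 CPM in Het_PBS 3 and 3.28 CPM in Het_PBS 1. In Het_PBS 3 S100a9 was above every WT_PBS library, whereas S100a8 was below WT_PBS 1, at 13.55 CPM. Neither gene was high in Het_PBS 1. For S100a8, without Het_PBS 1 and Het_PBS 3, the log2 fold change in Het_B12 against Het_PBS was -4.01. The B cell genes Cd79a and Ms4a1 had no read. Of 10 platelet genes 2 passed the filter and 0 were called, and their summed level was 9.67 to 16.4 CPM in Het_B12, 12.4 to 22.1 CPM in Het_PBS and 11.7 to 19.1 CPM in WT_PBS.

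Most tested markers of the vessel wall were higher in Het_B12. Of 15 endothelial genes 11 were tested and 4 rose in Het_B12 against Het_PBS, where 3.47% of all genes were called higher, with a median of 0.676 against 0.0119 over all genes. The summed level of the 15 was 226 to 286 CPM in Het_B12, 107 to 161 CPM in Het_PBS and 114 to 187 CPM in WT_PBS, so that Het_B12 lay above both other groups in every library. Flt1, a receptor for vascular endothelial growth factor, rose by 1.53 ± 0.19 (edgeR adjusted p = 3.79e-06), with means of 71.5 ± 15.8 CPM in Het_B12 and 25.1 ± 8.60 CPM in Het_PBS. Slco1a4, an organic anion transporter of brain endothelium, rose by 1.38 ± 0.23, and the tight junction protein claudin 5 (Cldn5) by 1.37 ± 0.35. Pecam1, an endothelial adhesion molecule, rose by 1.93 ± 0.55, a call lost in 6 of 15 fits without 1 library. Against WT_PBS, where 3.22% of all genes were called higher, Flt1, Slco1a4, Cldn5 and Ly6c1 rose by 1.86 ± 0.20, 1.22 ± 0.23, 1.44 ± 0.36 and 0.91 ± 0.27, the call for Ly6c1 being lost in 6 of 15 fits without 1 library. Emcn, an endothelial sialomucin, lay below 0, at -1.48 ± 0.55 against Het_PBS (edgeR adjusted p = 0.0968) and -1.66 ± 0.55 against WT_PBS (adjusted p = 0.0555). It had 20 reads in Het_B12, 46 in Het_PBS and 51 in WT_PBS libraries. The brain markers also shifted, with 5 of 10 neuron and glia genes lower and 1 higher in Het_B12 against Het_PBS. In that comparison 3.79% of all genes were called lower and 3.47% higher. Those called lower were the glial genes C1qa, Cx3cr1, Aldoc, Slc1a2 and Gfap, and the neuronal gene Rbfox3 was called higher (0.35 ± 0.10). The microglial gene C1qa was at 44.5 ± 4.52 CPM in Het_B12 and 89.2 ± 13.8 CPM in Het_PBS. The part of blood, vessel and glial markers, or of Gm42418 reads, in the haemoglobin result was not tested.

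**Figure D4:**
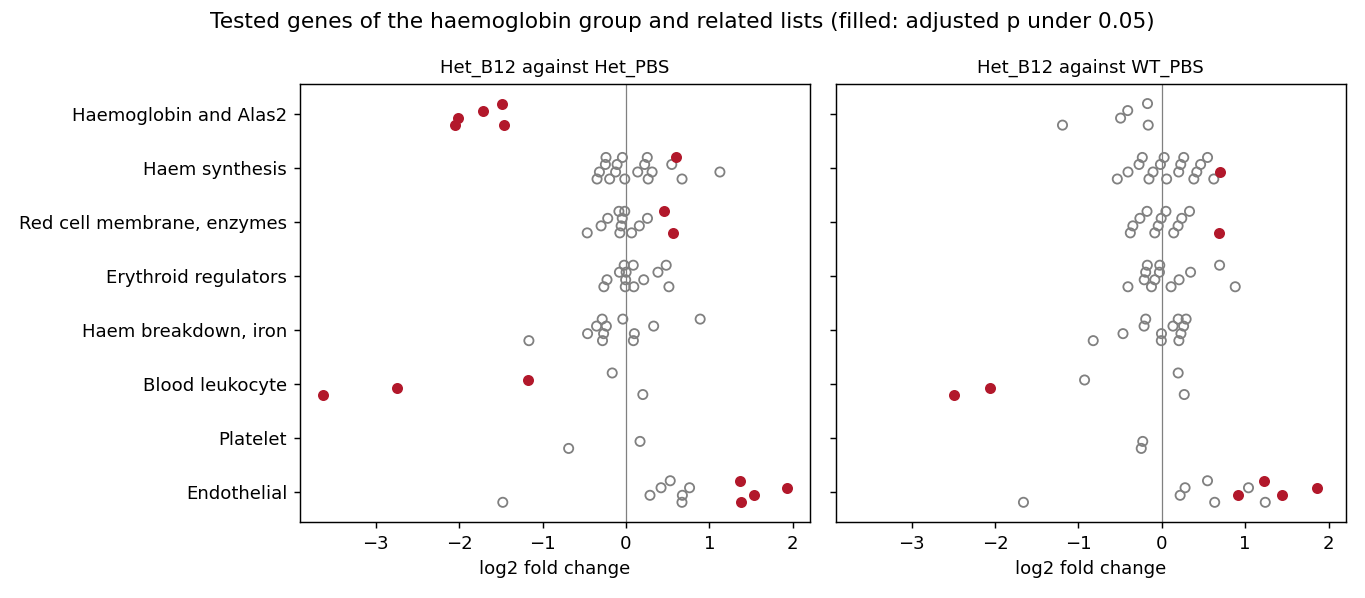
Log2 fold changes of every tested gene of the haemoglobin group and 7 related lists in Het_B12 against Het_PBS and in Het_B12 against WT_PBS; filled points are genes with an edgeR adjusted p under 0.05. The 5 haemoglobin and Alas2 points lie at or below -1.46 in the left panel and between -1.19 and -0.16 in the right one, whereas the called endothelial, haem synthesis and membrane genes lie above 0 in both.

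Other genes were ranked by how closely their level followed that of haemoglobin. Leaving out the 5 genes themselves, of which Alas2 had an r of 0.79, 11713 genes were compared over the 15 libraries. The 10 highest Pearson correlations with the log2 of the summed haemoglobin CPM were those of Gm2a, a lysosomal activator protein (r = 0.841), Nudt1, which clears oxidised nucleotides (0.834), Tnfrsf19 (0.815), Get4 (0.79), Dph6 (0.787), Mrpl17 (0.787), the oxysterol hydroxylase Cyp7b1 (0.786), Rdh14 (0.769), the myelin gene Mobp (0.769) and Ndufc1, a subunit of respiratory complex I (0.764). Gm2a averaged 59.7 ± 8.80 CPM in Het_B12, 78.9 ± 14.4 CPM in Het_PBS and 66.4 ± 9.22 CPM in WT_PBS, a far narrower range than that of the globins. The lowest were the calcium channel gene Cacna1d (-0.875), the kinase gene Sik3 (-0.86) and the zinc finger gene Zfp445 (-0.845). Without Het_PBS 1 and Het_PBS 3 the values of the 10 highest ran between 0.311 for Cyp7b1 and 0.835 for Rdh14, and those of the 3 lowest between -0.828 and -0.731. These are descriptions over libraries that share depth and group, and 10 genes taken as the highest of 11713 have high values by that choice.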

How the data were processed

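Libraries were made from mouse brain RNA by the QuantSeq method, per the labels' protocols, which name Qiazol with precipitation as well as RNeasy kits. Which library had which isolation is not stated, so whether it differed between the groups is not known. The authors deposited 1 table of raw counts, whole reads per gene and library, and no column was left unmapped. STAR, HTSeq, edgeR and the mm10 build are named per the submitters' processing notes. Their versions, the annotation and the strand setting are not given in the sources used. Of 30386 identifiers, 30348 matched GENCODE M21 (GRCm38), which gave loci; promoters came from RefSeq (GRCm38.p6). Sample titles gave the groups and replicate numbers.

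Counts were filtered with filterByExpr (11718 genes), scaled by TMM and fitted with the quasi-likelihood model of edgeR 4.0.16 in R 4.3.3 on all 15 libraries, 1 mean per group, no covariates. Genes with a Benjamini-Hochberg adjusted p under 0.05 over all genes tested were called. Standard errors are the absolute log2 fold change over the square root of F, and log2 CPM used a prior count of 2. The scripts were tested on simulated data. Alternatives were DESeq2 1.42.0 size factors and Wald tests, limma-voom (limma 3.58.1), other filters, other library totals, 2-group fits, the replicate number as a block and fits without libraries. The genes and lists were chosen with earlier results of these data known. Named are the 5 genes, every called list gene and up to 4 of the smallest p per list and comparison, the 10 highest and 3 lowest correlations, and rare globin and blood genes by their reads. 1 gene of the lists is not reported here. Shares of reads carry Wilson intervals that cover counting error only. Same-numbered libraries of different groups did not deviate together, so the numbers were not taken as pairs.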

Additional observations from a re-analysis of the deposited data

Results flagged for a closer look

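Alas2 stood at 15.9 CPM in WT_PBS 5, far from the other WT_PBS libraries, of which the next was at 5.00 CPM; the gap was 0.711 of the group's range, against a critical value of 0.71 for 5 samples. Het_PBS 5 had 1.67 Alas2 reads per 1000 haemoglobin reads, far below the other Het_PBS libraries, of which the next was at 4.56 (gap 0.816 of the range). These 2 were the flags among 30 sets of 5 libraries examined, where chance flags about 1 in 20. Both rest on few reads, 38 and 4 for Alas2.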

How the results depend on the processing

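Over the 25 alternative settings of each globin gene, Hbb-bs and Hbb-bt were called lower in Het_B12 against Het_PBS in every one, and Hba-a1 and Hba-a2 in every one but the fit without both Het_PBS 1 and Het_PBS 3. That fit gave -0.38 for Hba-a1, -0.41 for Hba-a2 and -0.65 for Alas2, called 2 of the 5 genes and 509 genes in all, and put Alas2 in Het_PBS against WT_PBS at -0.52, Cygb at -0.0206 and Slc25a37 at -0.0888. Alas2 was at -2.0 with DESeq2 and -2.16 with limma-voom, not called, and between -2.35 and -1.31 in fits without 1 library.

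With no filter on low counts 40 genes were called in Het_PBS against WT_PBS, 4 of the 5 among them (1.34 for Hba-a1, 1.30 for Hba-a2, 1.32 for Hbb-bs, 1.56 for Hbb-bt). In Het_B12 against WT_PBS that fit called 1004 genes, 2 of the 5 among them (-0.40 for Hbb-bs, -0.48 for Hbb-bt). The fold changes were close to those with the filter, but the SE were smaller, for Hbb-bs 0.114 against 0.268 in both comparisons. The cause was not tested. Since Het_PBS against WT_PBS led to the choice of the 5 genes, nothing is read from how many of them passed there. Fits without 1 library called 0 to 14 genes in Het_PBS against WT_PBS, 0 to 4 of the 5 among them, with ranges of 0.72 to 1.56 for Hba-a1, 0.70 to 1.54 for Hba-a2, 0.85 to 1.51 for Hbb-bs and 0.91 to 1.77 for Hbb-bt. They called 549 to 1050 genes in Het_B12 against Het_PBS and 449 to 1268 in Het_B12 against WT_PBS, where Hba-a1 ran between -0.335 and 0.0463 and Hba-a2 between -0.323 and 0.0826, both above 0 without WT_PBS 5. Without Het_PBS 5 and Het_B12 1, which share an animal number, 437 genes were called in Het_B12 against Het_PBS and 2 in Het_PBS against WT_PBS, Hbb-bs (1.40) and Hbb-bt (1.68).

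Signs also turned for genes near 0. In fits without 1 library, Cygb ran between -0.136 and 0.0313 in Het_B12 against WT_PBS, Slc25a37 between -0.026 and 0.475 in Het_PBS against WT_PBS, and Ngb between -0.0479 and 0.17 and Gp1bb between -0.00396 and 0.359 in Het_B12 against Het_PBS. Cygb in Het_B12 against WT_PBS was at 0.0298 without WT_PBS 3, 0.0313 without WT_PBS 4, 0.0292 without Het_B12 1 and 0.0293 without Het_PBS 5 and Het_B12 1, and Itga2b at 0.0285 without WT_PBS 3 and 0.0138 without Het_B12 2. In Het_PBS against WT_PBS Slc25a37 was at -0.026 without Het_PBS 3. In Het_B12 against Het_PBS Gp1bb was at -0.00396 without Het_PBS 3 and Ngb at -0.0479 without Het_B12 2.

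With the replicate number as a block, Hbb-bt was at -1.86 and Alas2 at -1.99 in Het_B12 against Het_PBS, 5 of the 5 and 830 genes were called there, and no call on the 5 genes changed in the 3 comparisons. Deviations of 15 same-numbered pairs correlated between -0.0933 and 0.106, other pairs between -0.082 and 0.133, and 5 of 15 libraries were closest to their own number, so the numbers are not taken as pairing mice. At these depths Alas2 differences of a few reads were not detectable.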
